A study of Mus musculus with 12 samples.

Results

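Mature neutrophils made up 2884 of the 202557 cell barcodes kept from 12 neonatal mouse livers, or 1.42% of them. They were chosen by their unique molecular identifiers (UMIs, each standing for 1 captured RNA molecule). A kept barcode held 500 to 50000 UMIs with at most 20% from mitochondrial genes. A member also had at least 10 UMIs of S100a8 and S100a9 together, at least 2 of the surface receptors Il1r2, Cxcr2 and Csf3r, and at most 5 of the secondary granule genes Ngp, Camp and Ltf. Barcodes with more than 1 UMI of the primary granule genes Elane, Mpo and Prtn3, with more than 1 of C1qa, C1qb and C1qc, or with any of Csf1r, Cd79a, Cd3e or Stab2 were left out. These limits were aimed at granulocyte progenitors, macrophages, monocytes, B cells, T cells and sinusoidal endothelial cells. Such a cell can still pass where this RNA was not captured. The livers came from C57BL/6 pups at postnatal day 11, with 6 naive control mice and 6 mice with phlebotomy-induced anemia (PIA), and each mouse gave 1 library. Anemic pups were bled from the facial vein every other day from day 2 to day 10, at 20 µL per g of body weight, toward a hematocrit of 20 to 24%, whereas control pups received a needle stick that drew no blood. Whole liver was dissociated with enzymes, so that neutrophils of the tissue and neutrophils of blood left in its vessels cannot be told apart. The control livers gave 922 members (101 to 201 per mouse) and the anemic livers gave 1962 (175 to 485 per mouse).

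Neutrophils are short-lived granulocytes that fill their granules in a fixed order while they mature. Progenitors make the primary granule proteases, the next stage makes the secondary granule proteins, and the last stages make gelatinase granules and surface receptors for chemokines, bacterial peptides and complement. The neonatal liver of the mouse still makes blood cells, so all of these stages can be found in it. S100a8 and S100a9 encode calprotectin, the most abundant cytosolic protein pair of neutrophils, while Cxcr2 is the chemokine receptor, Csf3r the G-CSF receptor and Il1r2 the decoy receptor for interleukin-1 of the mature cell.

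The label was checked on these marker genes, and levels are in CPM (UMIs of the gene per 1000000 UMIs of all such cells of the mouse, as mean ± SD over n = 6 mice). As the rule used them, they are a description only. S100a8 stood at 23211 ± 3697 CPM in control and 23153 ± 2181 in anemic members, and Il1r2 at 1658 ± 94.8 and 1710 ± 506 CPM. In all other kept barcodes S100a8 averaged 1754 CPM in controls and Il1r2 15.2. In control immature neutrophils, described below, S100a8 was higher than in members, at 74949 CPM, and Il1r2 lower, at 241 CPM. In anemic mice Il1r2 ran from 356 to 391 CPM in immature neutrophils, against 203 to 278 in controls. It averaged 29.0 CPM in the other kept barcodes of anemic mice. Il1r2 counts toward the receptor condition, and its part in the shares of members was not tested. Ngp averaged 324 CPM in control members, and 2313 members (80.2%) had no UMI of Ngp, Camp or Ltf. The eosinophil granule genes Epx and Prg2 were listed at 0 in the members of every mouse. At the limits of the rule, 848 members had exactly 2 receptor UMIs while 1011 barcodes that met every other condition had 1 and stayed outside. At the S100 limit 53 members had 10 UMIs and 34 barcodes outside had 9, and at the secondary granule limit 44 members had 5 UMIs and 40 barcodes outside had 6. A further 454 barcodes were left out for a single Csf1r UMI.

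Libraries held 46252146 to 65960679 UMIs in controls and 52021617 to 74545930 in anemic mice, and the members 4203965 UMIs in all. Any pair of libraries shared 56 to 122 barcodes, and no barcode was a member in both libraries of a pair. Some shared barcodes were members in 1 library only, at most 8 in a pair (anemic mice 2 and 3). No doublet caller was run, and 7 members had more than 10000 UMIs. Y-linked RNA was present in controls 1 and 2 and in anemic mice 1, 3, 5 and 6, so the sexes were unevenly spread. Members of anemic mice 2 and 3 stood apart from those of the other 10 mice in many genes, and their hepatocyte RNA was the lowest in the series in the members (2791 and 2648 CPM of a list of 20 hepatocyte genes) and in all other kept barcodes (4534 and 4875 CPM). Medians of the neutrophil lists that moved by over 1.5 times and calls that were lost without both libraries are given with and without them. These p-values measure the spread between single mice.

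To find out whether PIA altered how many mature neutrophils the liver held, their share of kept barcodes was compared over mice. The share was higher in the anemic liver. The control livers held 0.663%, 1.03%, 0.997%, 1.06%, 0.852% and 1.13% mature neutrophils, a mean of 0.954% ± 0.169 (SD, n = 6), and the anemic livers 1.43%, 2.74%, 2.14%, 2.10%, 1.32% and 1.14%, a mean of 1.81% ± 0.617. Every anemic mouse lay above every control, by a ratio of means of 1.90 (exact two-sided Mann-Whitney test, p = 0.00216, adjusted p = 0.00216 over 3 shares, the smallest p that 6 against 6 mice can give). The closest pair was control 6 and anemic mouse 6, whose 95% Wilson intervals of 0.986 to 1.30% and 0.980 to 1.32% overlapped, and these intervals cover counting error only. A share rises when other cells fall, and more neutrophils and fewer other cells cannot be told apart here. Globin-rich barcodes (over 10% of UMIs from 4 globin genes) took 7.77% ± 5.09 of kept barcodes in controls and 23.7% ± 7.78 in anemic mice, and without them the shares were 0.710 to 1.32% in controls and 1.54 to 2.98% in anemic mice, again without overlap (exact p = 0.00216). With at least 1 receptor UMI in place of 2 the difference of means was 0.965 percentage points and the call was lost (exact p = 0.0649).

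Maturity moved with the group as well. Immature neutrophils, which met the S100 condition with more than 5 UMIs of Ngp, Camp and Ltf, numbered 4313 (2297 control, 2016 anemic). They needed no receptor UMIs. A further 1808 barcodes met every condition of members except that of the receptors, and these count in neither class. Mature cells were 23.1 to 32.3% of mature and immature neutrophils together in controls (28.7% ± 3.26) and 42.0 to 73.8% in anemic mice (49.1% ± 12.3), again without overlap (exact p = 0.00216, adjusted p = 0.00216). Anemic mouse 2 gave the 73.8%, and the other 5 anemic mice lay between 42.0 and 48.4%. The immature share of kept barcodes was 2.40% ± 0.555 in controls and 1.86% ± 0.621 in anemic mice (exact p = 0.180), and the share of primary granule progenitors, 705 barcodes in all, was 0.278% ± 0.0950 and 0.410% ± 0.133 (exact p = 0.0649).

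**Figure D1:**
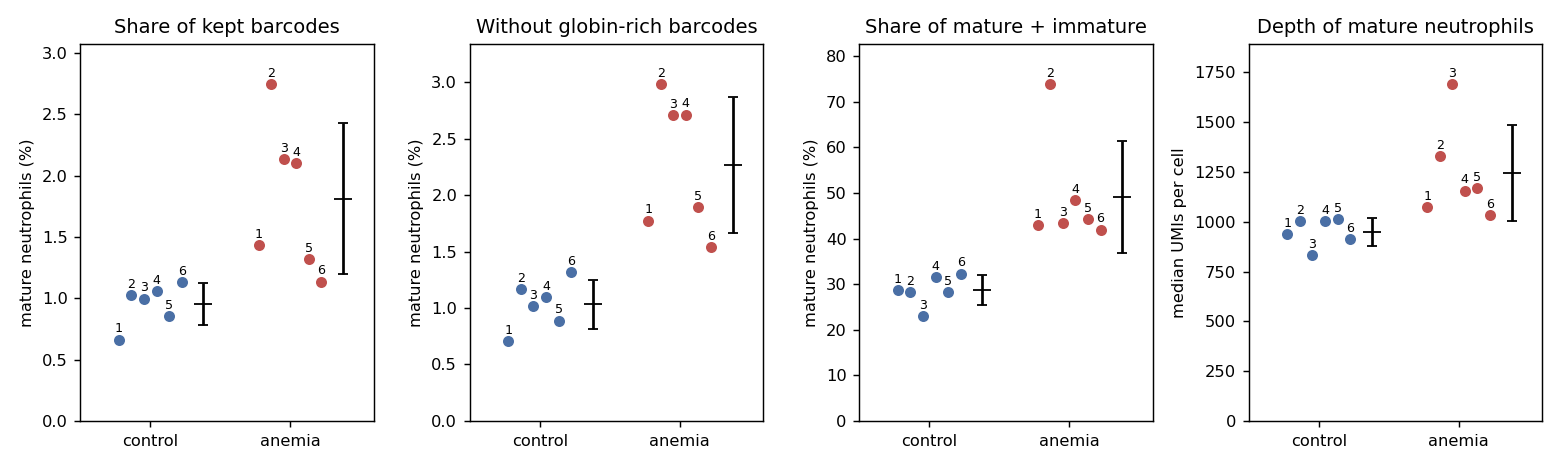
Share of mature neutrophils in kept barcodes, in kept barcodes without globin-rich ones, and in mature plus immature neutrophils (%), and median UMIs per member, by group (y axes from 0). Each dot is a mouse with its replicate number, and bars are mean ± SD of 6 mice. All 6 anemic mice lie above all 6 controls in each panel, and anemic mouse 2 stands at 73.8% in the third.

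Depth differed in the same direction. The median member held 831 to 1012 UMIs in controls (949.8 ± 71.2) and 1035 to 1690 in anemic mice (1243 ± 242; exact p = 0.00216), and the median immature neutrophil 1989 ± 141 and 2602 ± 316. Over all kept barcodes the medians were 2211 ± 126 and 2203 ± 414 UMIs (exact p = 0.699). Since the rule counts UMIs, a deeper cell meets its minimum counts more easily and also exceeds its upper limits more easily. With each barcode thinned to 500 UMIs before the rule was applied, 508 control and 921 anemic members were left, at shares of 0.368 to 0.613% and 0.701 to 1.10%, still without overlap. Thinning to 1000 UMIs, which left out 14715 control and 16548 anemic barcodes as too shallow, gave 0.303 to 0.563% and 0.715 to 1.95%. The mature share of mature and immature neutrophils thinned to 500 UMIs was 13.8 to 20.96% in controls and 21.09 to 51.3% in anemic mice. Its groups thus lay close, with control 6 at 20.96% and anemic mouse 3 at 21.09%. Thinned to 1000 UMIs, this share was 7.44 to 17.1% and 27.3 to 61.7%. At 500 UMIs a median member showed 309 ± 7.55 genes in controls and 304 ± 5.85 in anemic mice (exact p = 0.281).

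The UMIs of the members were then summed per mouse and 5434 genes were tested across both groups. Of these 29 passed at an adjusted p under 0.05, which is 0.534% of genes tested, with 7 higher (0.129%) and 22 lower (0.405%) in anemic mice. The median log2 fold change over all genes tested was 0.03, and 53.3% of genes lay above 0. Of the 18 gene lists for neutrophil functions, 17 held no called gene in either direction, and the exception was Mt1 in the list for iron and metallothioneins. Differences of these lists are therefore given as levels and medians.

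**Figure D2:**
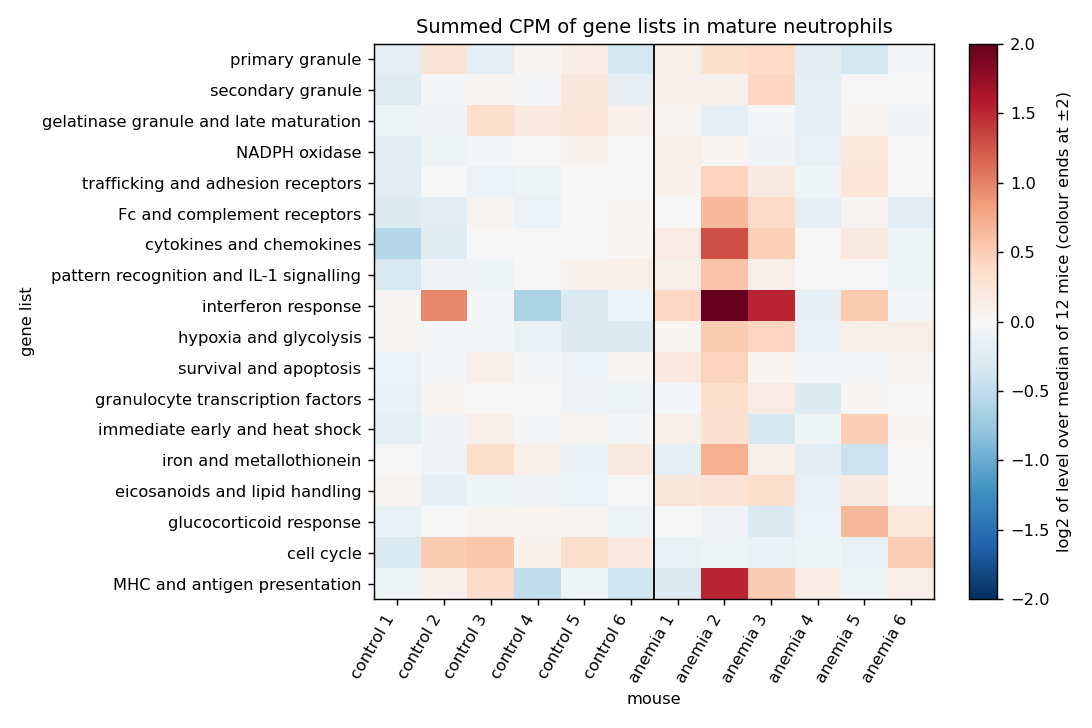
Summed level of each neutrophil gene list in mature neutrophils, by mouse, as log2 of its ratio to the median of the 12 mice (color scale, ending at 2 in both directions), with lists in rows and mice in columns. The interferon response row is highest in anemic mice 2 and 3, at 11415 and 4177 CPM.

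Levels of granule genes of the earlier stages overlapped between the groups. Of the primary granule list 3 genes were high enough to test, with a median log2 fold change of 0.20, or 0.47 without anemic mice 2 and 3, and lysozyme (Lyz2) stood at 958 ± 167 and 997 ± 257 CPM in control and anemic members. The tetraspanin Cd63 stood at 75.6 ± 12.2 and 86.4 ± 26.3 CPM. The 10 secondary granule genes tested had a median log2 fold change of 0.09, or 0.15 without anemic mice 2 and 3. The peptidoglycan binding gene Pglyrp1 stood at 1576 ± 152 and 1594 ± 164 CPM and the collagenase gene Mmp8 at 524 ± 131 and 535 ± 101 CPM, so that both differed by less than the spread between mice. Other members of the list lay further apart, with Chil3, a chitinase-like protein gene, at 12.7 ± 12.3 and 76.8 ± 61.6 CPM and 4 of 6 anemic mice above every control (log2 2.64, SE 0.77, edgeR adjusted p = 0.148), and Lcn2 at 218 ± 71.3 and 408 ± 256 CPM with anemic mice 2 and 3 above every control (log2 0.98, SE 0.34, edgeR adjusted p = 0.217).

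The 21 tested genes of gelatinase granules and late maturation split into 11 above and 10 below 0, with a median of 0.13 that was 0.01 without anemic mice 2 and 3. The summed list was not highest in mature cells. It ran from 80873 to 108108 CPM in control and 76621 to 88516 in anemic members. In immature neutrophils, it ran from 140097 to 187188 and from 105820 to 146557 CPM. The most abundant genes encode stefins and related cystatins, inhibitors of cysteine proteases that neutrophils make in bulk. Stfa1 ran from 31464 to 41868 CPM in controls (median 36899) and from 20103 to 30674 in anemic mice (median 27210), so the groups did not overlap. Its log2 fold change of −0.41 (SE 0.14) did not pass the test (edgeR adjusted p = 0.195). Over all genes tested 40 (0.736%) were lower and 16 (0.294%) higher in anemic mice without overlap. The neighboring copies Cstdc5 (25995 ± 3261 and 23954 ± 2308 CPM) and Cstdc4 (7141 ± 1036 and 6751 ± 553 CPM) overlapped between groups, and reads may be split among these similar genes. The late marker Retnlg stood at 5433 ± 676 and 5119 ± 1086 CPM. Hdc, the enzyme that makes histamine, stood at 1904 ± 200 CPM in controls and 2589 ± 317 in anemic mice, a log2 difference of 0.50 that did not pass (edgeR adjusted p = 0.121).

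The machinery of killing and movement overlapped between the groups in nearly all members. The 6 tested subunits of the NADPH oxidase, the enzyme that makes superoxide, had a median log2 fold change of 0.15, with Rac2 at 768 ± 125 and 766 ± 42.3 CPM and Cyba at 578 ± 69.3 and 605 ± 44.1. Of 16 receptors for trafficking and adhesion 12 lay above 0, with a median of 0.32 that was 0.13 without anemic mice 2 and 3. The adhesion receptor Cd44 stood at 2295 ± 352 and 2480 ± 347 CPM, and the C5a receptor C5ar1 at 1255 ± 115 and 1649 ± 440 CPM. The receptors without overlap were Ccr1 and Fpr1. Ccr1, a receptor for CC chemokines, ran from 476 to 573 CPM in controls and from 614 to 893 in anemic mice (log2 0.45, SE 0.13, edgeR adjusted p = 0.150). Fpr1, the receptor for formylated bacterial peptides, ran from 196 to 277 CPM and from 302 to 977 CPM (log2 1.05, SE 0.29, edgeR adjusted p = 0.146). Both were chosen for description after their values were seen. The 5 tested Fc and complement receptors had a median of 0.35 that was 0.09 without anemic mice 2 and 3. Fcer1g stood at 1354 ± 155 and 1602 ± 443 CPM, with 2340.4 and 1916 CPM in anemic mice 2 and 3 against at most 1549 in the others, Cd300a at 207 ± 27.3 and 221 ± 29.8, and Fcgr3 at 89.6 ± 14.2 and 109 ± 25.4.

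Of the 18 lists for neutrophil functions, the interferon response list had the highest ratio of its highest to its lowest mouse. Interferons released on infection switch on these genes through transcription factors that bind a promoter element built of a repeated GAAA core. The summed list of 46 genes stood at 1476, 2830, 1422, 939, 1189 and 1338 CPM in the controls. In the anemic mice it stood at 1930, 11415, 4177, 1288, 2079 and 1410 CPM. Anemic mice 2 and 3 were thus the highest of the 12 and the other 4 anemic mice lay within the control range. All 38 tested genes had a log2 fold change above 0, with a median of 1.30, and none passed the test. The median was 0.58 without anemic mouse 2, 1.25 without anemic mouse 3 and −0.03 without both. In 24 of the 38 genes anemic mice 2 and 3 had the 2 highest values, against 326 of 5434 genes tested (6%). These mice gave 834047 and 905696 of the 4203965 UMIs of all members. The filter on mean UMIs therefore favors genes that are high in them, so these counts are no independent support for a rise.

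These genes were also compared cell by cell. With each member thinned to 500 UMIs, the median member held 5 UMIs of the list in anemic mouse 2 and 2 in anemic mouse 3, against 0 to 1 in the other 10 mice, and the 90th percentile was 12 and 5 UMIs against 1 to 3. The same mice were also highest in immature neutrophils, at 4140 and 2386 CPM against 565 to 1859. In all other kept barcodes anemic mouse 2 was highest at 6948 CPM, whereas anemic mouse 3 (3436 CPM) lay below control 2 (3921 CPM).

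Promoters of these genes were read to show the element. The letters GAAANNGAAA on either strand occurred within 250 bases before the start of 16 of the 31 tested list genes that had a RefSeq promoter (51.6%), against 172 of 4338 tested genes (3.97%) and 936 of 27025 genes in all (3.46%). A match describes the sequence and is not evidence of binding. The 5 matched genes with the highest levels in anemic mouse 2 are given 5′ to 3′ on the gene's strand in RefSeq GRCm38.p6 with the matching letters in capitals.
Isg15, chr4:156200860-156200899, minus strand: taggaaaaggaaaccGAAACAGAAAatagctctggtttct
Gbp2, chr3:142620589-142620628, plus strand: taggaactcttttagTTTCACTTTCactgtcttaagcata
Rsad2, chr12:26456548-26456587, minus strand: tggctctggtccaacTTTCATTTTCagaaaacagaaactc
Ifit1, chr19:34640789-34640828, plus strand: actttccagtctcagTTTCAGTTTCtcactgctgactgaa
Gbp7, chr3:142530268-142530307, plus strand: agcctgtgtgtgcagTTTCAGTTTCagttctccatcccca
The matches in capitals began 66, 59, 120, 85 and 53 bases before the gene start in this order.

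Isg15, a ubiquitin-like protein that is attached to other proteins after interferon, stood at 153, 134, 126, 27.3, 33.2 and 97.3 CPM in controls. In anemic mice it stood at 109, 1583, 388, 93.1, 78.6 and 98.3 CPM, so 2 mice were above every control and the other 4 were not (log2 2.21, SE 0.75, edgeR adjusted p = 0.211). Gbp2, a GTPase that attacks the vacuoles of pathogens, stood at 1286 and 167 CPM in anemic mice 2 and 3 against 0 to 77.7 in the other 10. Gbp7 of the same family stood at 313 and 45.3 CPM against 7.01 to 25.6. Ifit1, which binds viral RNA, stood at 331 and 117 CPM against 0 to 80.7. For Rsad2, the antiviral enzyme viperin, only anemic mouse 2 (331 CPM) was above the other mice, as anemic mouse 3 (102 CPM) lay below control 2 (103.5 CPM). Slfn4, a myeloid gene of the Schlafen family, stood at 669 and 396 CPM against at most 198 in the others. Other abundant list genes were less uneven, with Slfn1 at 221 ± 47.5 and 378 ± 169 CPM and Ifi27l2a at 137 ± 92.5 and 293 ± 180 CPM.

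Anemic mice 2 and 3 were also alike in genes outside the interferon list. They stood apart outside the members too. In all other kept barcodes the cytokine and chemokine list stood at 5193 and 3131 CPM in them against 1559 to 2553 in the other 10 mice. Wfdc17, a small secreted protein of the whey acidic protein family, stood at 2369 and 3820 CPM in their members against 43.7 to 265 in the other 10 mice (log2 3.93, SE 0.88, edgeR adjusted p = 0.0531). Ifitm1, a membrane protein that blocks viral entry, stood at 1950 and 1940 CPM against 105 to 394. Plac8 stood at 1385 and 596 CPM against 32.3 to 145, and the uridine phosphorylase gene Upp1 at 307 and 147 CPM against 0 to 17.1. Cd274, which encodes the checkpoint ligand PD-L1, stood at 1294 and 340 CPM against 42.0 to 146. The iron-binding secondary granule protein Lcn2 stood at 549 and 868 CPM against 145 to 339. Lower in both than in the other 10 mice were the gelatinase gene Mmp9, at 261 and 359 CPM against 553 to 810, and the retention receptor gene Cxcr4, at 181 and 168 CPM against 229 to 472. Over all genes tested, 361 (6.64%) had their 2 lowest values in these mice. Markers of monocytes were higher in the same members, with a summed list of 1679 and 1003 CPM against 355 to 928. In all other kept barcodes this list stood at 1995 and 1306 CPM in these mice against 788 to 1048 in the other 10. The 9 tested genes of this list had a median log2 fold change of 0.69, or 0.0029 without both mice. Of that list Ms4a6c stood at 189 and 120 CPM against 0 to 57.7, while Ccr2 (80.3 and 45.3 CPM) did not exceed control 2 (94.9 CPM). The lysosomal protease gene Ctss, which macrophages share, stood at 478 and 202 CPM against 19.9 to 73.3. The part of other cells in these values was not tested. The genes in this paragraph were named after their values were seen, also those that are in the lists.

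**Figure D3:**
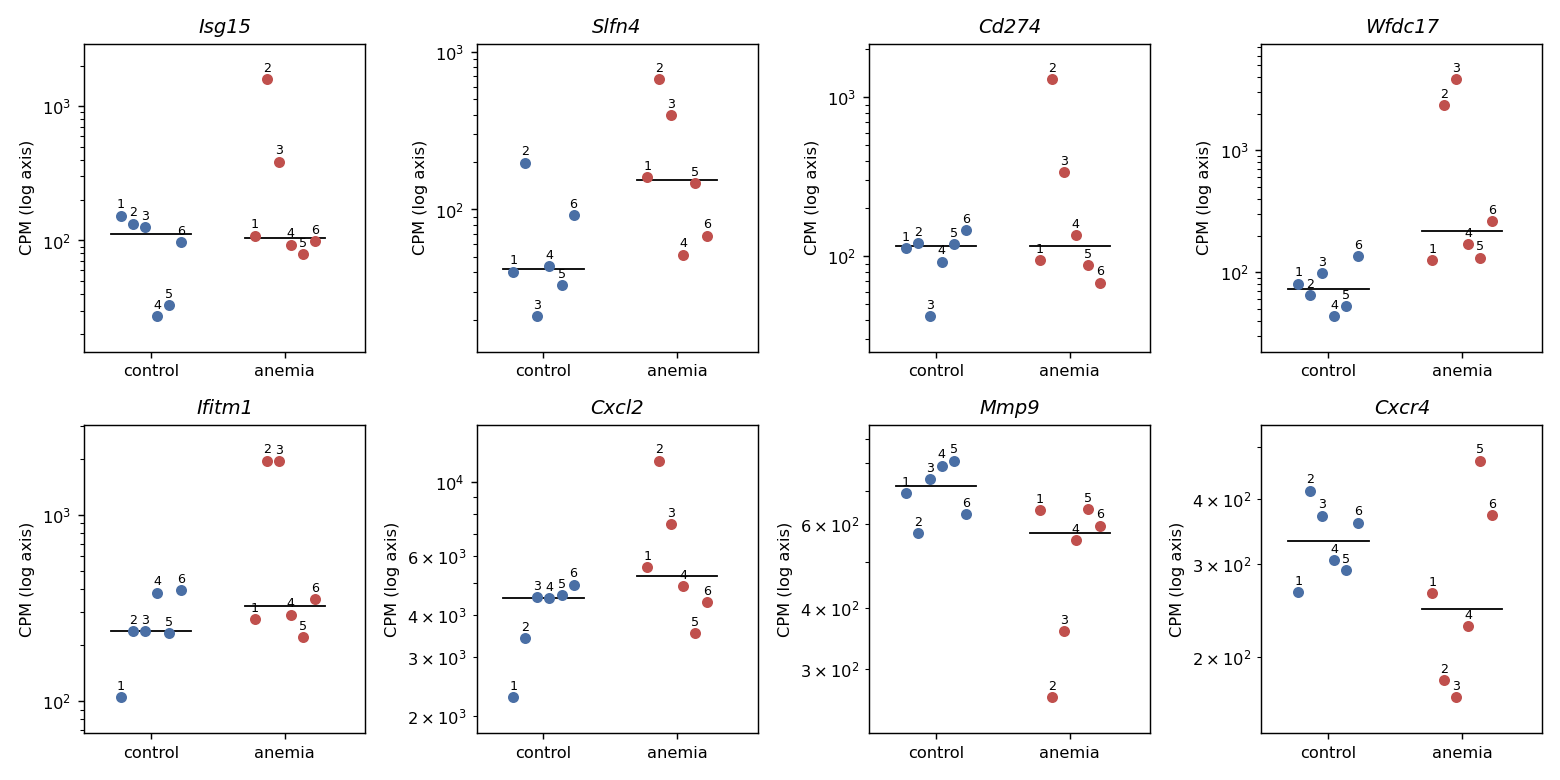
Level of 8 genes in mature neutrophils (CPM, log axis) by group, with a dot per mouse labelled by replicate number and a line at each group's median. Anemic mice 2 and 3 are the highest of 12 for Isg15, Slfn4, Cd274, Wfdc17, Ifitm1 and Cxcl2 and the lowest for Mmp9 and Cxcr4.

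Cytokine and chemokine genes lay above 0 in 15 of 17 tested cases, with a median log2 fold change of 0.76 that was 0.32 without anemic mice 2 and 3. None passed the test. Cxcl2, a ligand of Cxcr2 that draws in more neutrophils, stood at 2274, 3412, 4534, 4491, 4601 and 4940 CPM in controls and at 5581, 11569, 7485, 4889, 3530 and 4371 CPM in anemic mice. The groups overlapped, since anemic mice 4, 5 and 6 lay within the control range (log2 0.69, SE 0.27, edgeR adjusted p = 0.291). Il1b, the secreted interleukin-1, ran from 903 to 1468 CPM in controls (median 1387) and from 1333 to 3373 in anemic mice (median 1830), where anemic mice 2, 3, 5 and 6 were above every control. The chemokine gene Ccl6 stood at 1454 ± 89.9 and 1228 ± 341 CPM.

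Receptors for pathogens and the pathway below interleukin-1 had a median of 0.23 over 21 tested genes, and 0.05 without anemic mice 2 and 3. The adaptor Tyrobp stood at 3746 ± 289 and 3339 ± 299 CPM and the lectin receptor Clec4d at 1459 ± 265 and 1415 ± 276 CPM. Its neighbor Clec4e, also known as Mincle, stood at 277 ± 53.0 and 507 ± 210 CPM (log2 0.96, SE 0.24, edgeR adjusted p = 0.0983). Acod1, the enzyme that makes itaconate, stood at 3357 and 1552 CPM in anemic mice 2 and 3 against 371 to 884 in the others. Il1rap, the shared chain of the interleukin-1 receptor, was 22.8 times as high in members as in other kept barcodes. It stood at 379, 397, 315, 371, 578 and 526 CPM in controls and at 635, 408, 531, 660, 919 and 709 CPM in anemic mice. Its log2 fold change of 0.62 (SE 0.19) did not pass over all 12 mice (edgeR adjusted p = 0.160) and passed without anemic mice 2 and 3 (log2 0.79, edgeR adjusted p = 0.0300). It was chosen for description after its values were seen.

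Hypoxia and glycolysis genes, which hypoxia-inducible factor raises when oxygen is short, had a median log2 fold change of 0.40 over 33 tested genes, with 25 above 0 and none called. The median was 0.24 without anemic mice 2 and 3, and 11 of the 33 had their 2 highest values in these mice. In members the summed list overlapped between groups, at 5130 to 6396 CPM in controls and 5670 to 9014 in anemic mice. It did not overlap in immature neutrophils (6326 to 7479 and 7691 to 8746 CPM) or in all other kept barcodes (4780 to 5731 and 6276 to 11629 CPM). A rise of this list is therefore not particular to mature cells. Gapdh stood at 1141 ± 207 and 1623 ± 367 CPM, Aldoa at 531 ± 85.4 and 790 ± 277, and Pkm at 594 ± 135 and 709 ± 253. Gpi1, the enzyme of the second step of glycolysis, ran from 154 to 212 CPM in controls and from 222 to 391 in anemic mice without overlap, with a log2 fold change of 0.68 (SE 0.17, edgeR adjusted p = 0.0783). Targets of the same factor outside glycolysis were less even, with Bnip3 at 57.4 ± 23.4 and 95.8 ± 37.0 CPM and Vegfa at 75.3 ± 30.0 and 55.5 ± 20.6 CPM.

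Lists for survival, transcription factors and early response genes had medians of 0.26, 0.10 and 0.21. Without anemic mice 2 and 3 these were 0.09, −0.06 and 0.18, so the transcription factor list turned its sign. Mcl1, which keeps neutrophils alive, stood at 1506 ± 129 and 1628 ± 193 CPM, the kinase gene Pim1 at 2511 ± 196 and 2785 ± 443, and the inhibitor of apoptosis Birc3 at 289 ± 64.2 and 334 ± 55.0. The granulocyte factor Cebpb stood at 6473 ± 568 and 6986 ± 1413 CPM, Mxd1 at 856 ± 173 and 1013 ± 110, and Klf2 at 881 ± 122 and 767 ± 185. Junb stood at 2180 ± 335 and 2326 ± 475 CPM and Fos at 1751 ± 250 and 1938 ± 519. The 15 tested genes of the lipid mediator list had a median of 0.22, or 0.14 without anemic mice 2 and 3. Of these Alox5ap, which serves leukotriene synthesis, stood at 1705 ± 74.8 and 2075 ± 496 CPM, Pla2g7 at 472 ± 66.3 and 633 ± 157, and Plin2 at 317 ± 24.7 and 338 ± 64.3. The glucocorticoid list had a median of 0.17, or 0.32 without anemic mice 2 and 3, with Dusp1 at 1153 ± 161 and 1361 ± 406 CPM and the receptor gene Nr3c1 at 295 ± 87.7 and 212 ± 55.4. Cell cycle genes were low in members, with a median of −0.49 over 11 tested genes. It was −0.29 without anemic mice 2 and 3 and 0.04 in members without UMIs of monocyte and class II genes, so its direction was not kept. Hmgb2 stood at 589 ± 107 and 505 ± 93.2 CPM.

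Levels of iron storage genes overlapped between the groups, and the 10 tested genes of their list had a median of 0.15 that was −0.01 without anemic mice 2 and 3. The ferritin chain genes stood at 18008 ± 2226 and 16867 ± 6030 CPM for Fth1 and at 3635 ± 730 and 3971 ± 731 CPM for Ftl1, and the iron exporter gene Slc40a1 at 186 ± 26.6 and 249 ± 67.7. Mt1, a metallothionein that binds zinc and copper, rose. It ran from 9.73 to 70.1 CPM in controls (median 24.2) and from 61.1 to 283 in anemic mice (median 148), and 5 of 6 anemic mice were above every control (log2 2.17, SE 0.42, edgeR adjusted p = 0.0338). Its level in members was 0.30 times that in all other kept barcodes, its call was lost in 5 of 12 fits without 1 mouse, and its adjusted p was 0.124 in members low in hepatocyte and globin RNA. Erythroid RNA in the same members went from 8.27 to 42.9 UMIs per member, and its part in the rise of Mt1 was not tested.

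Genes of hepatocytes and of erythroid cells led the calls. Of the 29 genes 8 were in the hepatocyte list, 5 in the erythroid list and 1 in a neutrophil list, and 22 were lower in members than in the other kept barcodes. The other 7 were at least as high in members, against 1973 of all 5434 genes tested. This comparison averages all 12 mice, so a change between the groups moves it too. Only Mgst1 was more than 2 times as high in members. Cyp2e1, a drug-metabolizing cytochrome P450 of hepatocytes at chr7:140763739-140774987, fell from 137, 90.6, 63.1, 92.8, 113 and 97.3 CPM in controls to 6.79, 4.80, 7.73, 12.1, 40.9 and 21.4 CPM in anemic mice. Every anemic mouse was below every control (log2 −2.79, SE 0.40, edgeR adjusted p = 0.0116). The carbonic anhydrase gene Car3 fell by 3.92 on the log2 scale (SE 0.69), although control 1 alone held 315 CPM and the other controls 19.5 to 66.4. The peroxisomal enzyme gene Crot fell from 97.1 ± 52.0 to 21.4 ± 8.28 CPM (log2 −2.15, SE 0.34, edgeR adjusted p = 0.0188). Secreted liver proteins fell too, with albumin (Alb) at 3077 ± 1220 and 1004 ± 505 CPM, transthyretin (Ttr) at 3037 ± 2282 and 768 ± 401, and the apolipoprotein Apoa1 at 1329 ± 336 and 419 ± 237. These calls were lost in 10, 9 and 8 of 12 fits without 1 mouse, and Ttr stood at 7670.3 CPM in control 1 against 1757 to 2352 in the other controls. The other secreted proteins that fell, among those the rule for named genes took, were Ahsg, Ambp, Apof, Itih2, Kng1, Fga, Fgb and Pon1. The rule also took the cytochrome P450 gene Cyp2c70 and the transmembrane protein gene Tmem205, which fell. Outside that rule Apoe, Apom, Marc2, Adh1 and Fabp2 fell as well. In all control and all anemic members Car3 had 80 and 15 UMIs, Tmem205 45 and 19, and Fabp2 36 and 24. These genes met the filter of a mean of at least 5 UMIs only through the controls, so their calls are no independent support for a fall. Without anemic mice 2 and 3 the calls of Apof, Fga, Tmem205, Apom, Adh1, Fabp2 and Mgst1 were lost (edgeR adjusted p = 0.0757 to 0.155), and the other 22 of the 29 calls held. Leaving out 1 mouse at a time ended the call in 8 to 12 of 12 fits for 16 of the 29 genes, Apom, Marc2 and Adh1 (10 fits each) and Fabp2 (12 fits) among them, and in 0 to 5 fits for the other 13. Apoa4, an apolipoprotein gene of liver and gut, went the other way on few molecules, with 2 UMIs in all control members and 79 in all anemic ones (log2 3.68, SE 0.78, edgeR adjusted p = 0.0452). It met the filter of a mean of at least 5 UMIs only through the anemic mice, so its call is no independent support for a rise. In 5 of 6 anemic mice it was above every control, and its call was lost in 11 of 12 fits without 1 mouse.

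Erythroid genes rose. Alas2, the first enzyme of heme synthesis in red cells, ran from 7.01 to 72.6 CPM in controls (median 16.4) and from 76.7 to 122 in anemic mice (median 94.4), without overlap (log2 2.15, SE 0.36, edgeR adjusted p = 0.0209). It had 23 UMIs in all control members and 311 in all anemic ones. Alas2 thus met the filter of a mean of at least 5 UMIs only through the anemic mice, so its call is no independent support for a rise. The β-globin gene Hbb-bt rose from 281 ± 182 to 1225 ± 205 CPM and Hbb-bs from 4188 ± 2715 to 16118 ± 1780. The α-globin genes Hba-a1 and Hba-a2, near-identical copies whose reads may be split, rose from 1512 ± 1016 to 6007 ± 788 CPM and from 1144 ± 732 to 4149 ± 621 CPM. Leaving out 1 mouse ended the calls of Hbb-bs, Hba-a1 and Hba-a2 in 11, 9 and 10 of 12 fits and that of Hbb-bt in 1. Every one of these genes stood in members at 0.30 to 0.33 times its level in other kept barcodes.

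**Figure D4:**
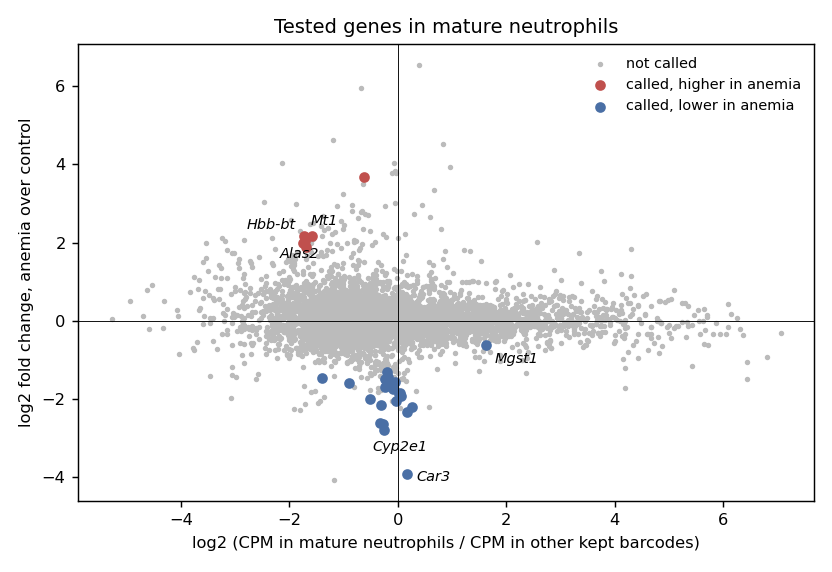
Log2 fold change of each of 5434 tested genes between anemic and control mature neutrophils (y axis) against log2 of its level in members over that in other kept barcodes (x axis). Called genes are marked in color, 22 of the 29 called genes lie left of 0 on the x axis, and Mgst1 lies farthest right of them. Of all 5434 genes tested, 1973 were at least as high in members as in other kept barcodes.

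The summed lists show how much such RNA the members held. Hepatocyte RNA ran from 12343 to 34819 CPM in control members, with control 1 highest, and from 2648 to 10784 in anemic members, without overlap. In UMIs, a member held 13.01 to 42.7 of the list on average in controls and 4.80 to 14.6 in anemic mice. In all other kept barcodes the same list ran from 11061 to 19082 CPM in controls and from 4534 to 20545 in anemic mice, so there the groups overlapped. Of 19 tested hepatocyte genes 8 were called lower and none higher, against 0.405% called lower and 0.129% called higher of all genes tested. In the list 18 genes lay below 0 and 1 above, with a median of −1.44, or −1.02 without anemic mice 2 and 3. Erythroid RNA ran from 1156 to 12824 CPM in control members and from 22953 to 30403 in anemic members, or 8.27 ± 5.23 and 42.9 ± 8.81 UMIs per member. In other kept barcodes it ran from 5024 to 43658 and from 36522 to 145823 CPM. Of 12 tested erythroid genes 5 were called higher and none lower, and all 12 lay above 0, with a median of 1.72.

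When members were limited to those with at most 1% of UMIs from the hepatocyte list and at most 1% from the globin genes, a limit set after the data were seen, 5 genes were called in place of 29. This limit selects cells on RNA of the genes that were called, and 12 of the 29, Cyp2e1, Crot, Alas2 and Car3 among them, were then too low to be tested. Among the list genes still tested the median log2 fold change was −0.69 for hepatocyte, 1.16 for erythroid and −0.04 for gelatinase granule and late maturation genes. The 5 genes were Hbb-bs, Marcks, Rgs1, Cd7 and Gzmb, all of them lower in members than in other kept barcodes. RNA of T and NK cells, to which Cd7 and Gzmb belong, ran from 136 to 657 CPM in control members and from 15.7 to 222 in anemic members. Lists of the other cell types were lower still or overlapped between groups, with macrophage RNA at 77.1 to 151 and 91.4 to 276 CPM, endothelial RNA at 136 to 259 and 107 to 201, B cell RNA at 88.7 to 904 and 71.9 to 233, dendritic cell RNA at 8.07 to 156 and 15.7 to 98.3, and platelet RNA at 24.2 to 81.9 and 10.2 to 67.1. RNA of stellate cells ran from 77.9 to 778 and from 149 to 3698 CPM, with anemic mice 4, 5 and 6 highest at 3698, 2120.2 and 1525 CPM. Without anemic mice 2 and 3, 36 genes were called, 19 higher and 17 lower, and the matrix genes Col1a1, Col1a2, Col6a2, Lum, Mfap4, Mgp and Lama2 were among those higher. The part of stellate cell RNA in these calls was not tested. Eosinophil RNA ran from 4.87 to 43.7 and from 17.2 to 44.2 CPM, and that of basophils and mast cells from 0 to 24.3 and from 0 to 28.3.

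**Figure D5:**
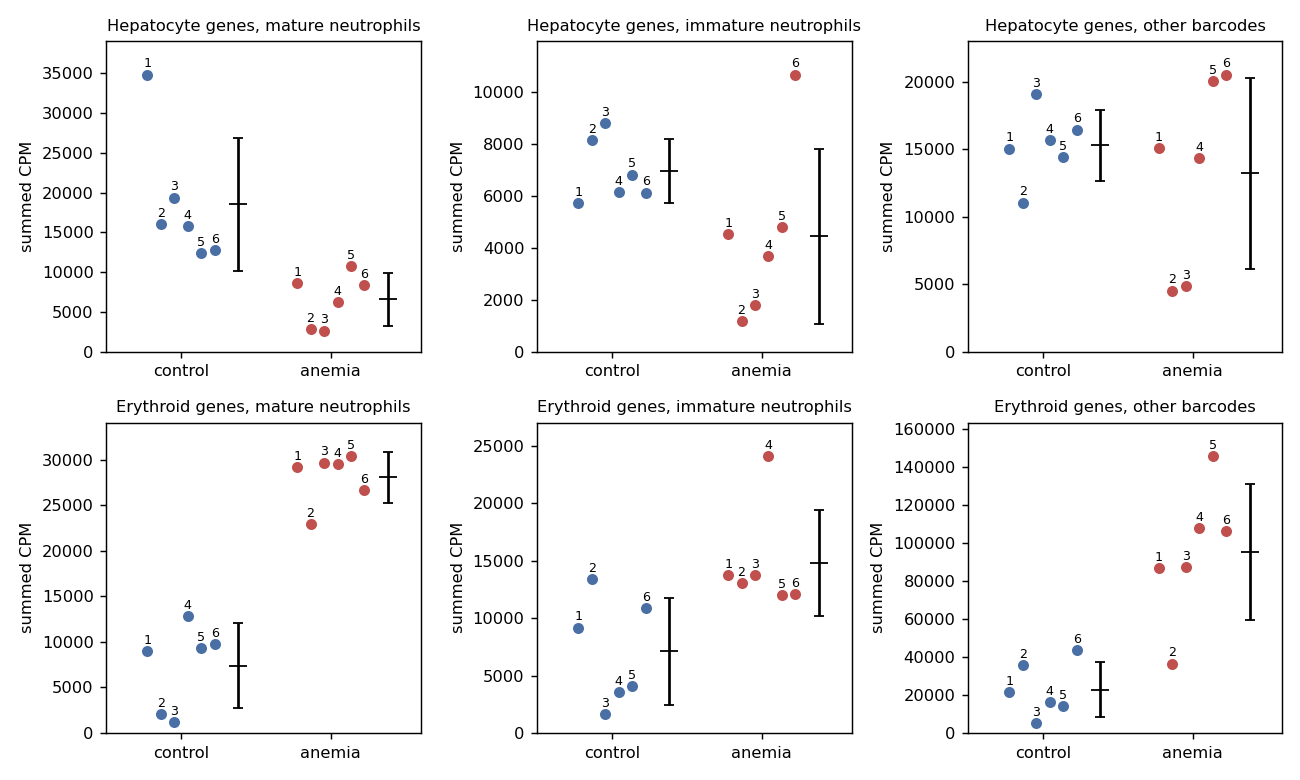
Summed CPM of the hepatocyte list (upper row) and the erythroid list (lower row) in mature neutrophils, immature neutrophils and all other kept barcodes, by group, with a dot per mouse labelled by replicate number and bars for mean ± SD of 6 mice. In mature neutrophils every control is above every anemic mouse for hepatocyte RNA and below every one for erythroid RNA, while hepatocyte RNA overlaps between the groups in immature neutrophils and in other barcodes.

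Mgst1 encodes a membrane-bound glutathione transferase that detoxifies lipid peroxides and lies at chr6:138140316-138156755 on the plus strand (GRCm38). It was 3.07 times as high in members as in the other kept barcodes. It stood at 1170, 811, 1051, 742, 1023 and 774 CPM in controls and at 618, 543, 549, 572, 645 and 543 CPM in anemic mice. Every anemic mouse was below every control, and the values of anemic mice lay closer together than those of controls. The log2 fold change was −0.63 (SE 0.13, edgeR adjusted p = 0.0459). Leaving out 1 mouse at a time ended the call in 11 of 12 fits, and the adjusted p was 0.0757 without anemic mice 2 and 3. Mgst1 was chosen for description after its values were seen.

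To ask whether mature neutrophils changed differently from immature ones, the difference between both changes was tested with the mouse as a block. It passed in 3 of 5281 genes (0.0568%), and in 0 by limma voom with the mouse as a random effect (345 genes at an unadjusted p under 0.05). Cd74, the invariant chain of MHC class II molecules, stood at 315 ± 285 and 633 ± 316 CPM in control and anemic mature cells, and at 482 ± 397 and 132 ± 80.4 CPM in immature cells (log2 difference 2.90, SE 0.47, edgeR adjusted p = 0.0154). The class II chain gene H2-Eb1 stood at 16.0 ± 16.9 and 48.7 ± 36.6 CPM in mature cells and at 43.3 ± 48.3 and 6.22 ± 6.41 CPM in immature cells (log2 difference 4.00, SE 0.74, edgeR adjusted p = 0.0455). Class II genes mark B cells, dendritic cells and macrophages, and both genes stood in members at 0.14 and 0.17 times their level in other kept barcodes. Within either stage alone neither gene passed. Atad2b, a nuclear protein with a bromodomain at chr12:4917353-5047394, stood at 29.9 ± 13.01 and 77.0 ± 22.9 CPM in mature cells and at 91.6 ± 9.70 and 81.5 ± 13.5 CPM in immature cells (log2 difference 1.52, SE 0.29, edgeR adjusted p = 0.0455). In mature cells alone its log2 fold change of 1.31 did not pass (edgeR adjusted p = 0.0563), and without anemic mice 2 and 3 it passed (log2 1.56, edgeR adjusted p = 0.0168). The number of calls was 0 without control 1, without control 5 or without anemic mouse 2, where 346, 359 and 292 genes had an unadjusted p under 0.05, against 373 with all 12 mice.

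Genes of MHC and antigen presentation as a whole lay above 0 in 15 of 15 tested cases in mature cells, with a median of 1.09 that was 0.30 without anemic mice 2 and 3, and none passed. B2m, the light chain of class I molecules, stood at 949.7 ± 127 and 1093 ± 522 CPM and the class I gene H2-D1 at 437 ± 85.3 and 492 ± 153 CPM. In 8 of the 15 the 2 highest values were those of anemic mice 2 and 3. As for the interferon list, the filter on mean UMIs favors genes that are high in these mice.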

How the data were processed

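Single-cell RNA was measured with 10x Genomics 3' chemistry in 12 libraries, 1 per mouse. The labels name the v2 kit, whereas the design text and the methods name v3.1. The authors deposited UMI counts per gene and barcode from Cell Ranger 7.0.0 (per the file headers), on mm10 per the submitters' processing notes, with barcodes already filtered for cells. The annotation is not given in the sources used here. GENCODE M21 (GRCm38) gave coordinates and RefSeq GRCm38.p6 the promoters. Raw counts were used throughout. Members and gene lists were chosen with earlier results of these data known. Counts were summed per mouse, mitochondrial and ribosomal protein genes, the 18 rule genes and genes with a mean under 5 UMIs were not tested, and edgeR 4.0.16 (R 4.3.3) quasi-likelihood tests with TMM factors and Benjamini-Hochberg adjustment over all tested genes were run. Fold changes carry TMM factors and CPM values do not. Shares were compared by exact Mann-Whitney tests (SciPy 1.17.1). Per direction the named genes were up to 10 called genes of largest fold without overlap and at least 10 CPM, up to 5 of smallest p, every called list gene, and the 3 highest tested genes per list. A few genes that this rule took are not reported here. Others were chosen after their values were seen. Alternatives included DESeq2 1.42.0, limma 3.58.1, other limits of the rule and leaving out mice. On simulated data for the comparison of anemic with control members (5195 genes), 76 of 80 genes changed by 2 on the log2 scale were called, 36 of 91 changed by 1, and 7 of 5024 unchanged.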

Additional observations from a re-analysis of the deposited data

Results flagged for a closer look

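In groups of 6 mice, a highest or lowest value was singled out when its gap to the next value, divided by the range of its group, exceeded Dixon's 95% critical value. Of 236 groups tested 32 were, and 9 of them were anemic mouse 2. The limit flags about 1 in 20 of independent groups of normal values. Here lists and their own genes come from the same mice, so the count cannot be set against that rate. No cause was tested.

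In anemic mouse 2 the mature share of mature and immature neutrophils was 73.8%. Its members also stood out in the summed lists for cytokines and chemokines (22704 CPM), pattern recognition and IL-1 signalling (18100 CPM), the interferon response (11415 CPM), iron and metallothioneins (34333 CPM) and MHC and antigen presentation (7215 CPM), and in Isg15 (1583 CPM), B2m (2104 CPM) and, as the lowest anemic value, Hbb-bs (12594 CPM). The lists were not high in its members alone. In all other kept barcodes this mouse was also the highest of the 12 in each of them, at 5193, 5067, 6948, 24200 and 11944 CPM in the same order.

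In control 1 the hepatocyte list stood at 34819 CPM, with Car3 at 315, Pon1 at 250.0, Ahsg at 4355, Apof at 129, Tmem205 at 121, Ttr at 7670, Adh1 at 210 and the erythroid gene Alas2 at 72.6 CPM. These values of hepatocyte genes were the highest of all controls.

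Control 2 stood out in the interferon response list (2830 CPM), in Ifi27l2a (319 CPM) and in Atad2b (56.1 CPM). Control 3 did so in the B cell list (904 CPM), H2-Eb1 (49.1 CPM), Itih2 (168 CPM), C5ar1 (1479 CPM) and Ftl1 (5059 CPM), control 5 in Mmp8 (783 CPM) and control 6 in the basophil and mast cell list (24.3 CPM). Anemic mouse 5 stood out in Fabp2 (22.0 CPM), Klf2 (1123 CPM) and the basophil and mast cell list (28.3 CPM), and anemic mouse 6 in the cell cycle list (2021 CPM).

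By the test of the difference between both changes, the change in mature neutrophils exceeded that in immature ones by 2.90 on the log2 scale for Cd74, by 4.00 for H2-Eb1 and by 1.52 for Atad2b.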

How the results depend on the processing

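The 3 shares and the median UMIs kept their direction and their side of the threshold under the alternatives tried, except that with at least 1 receptor UMI the share of kept barcodes differed by 0.965 percentage points and the call was lost (exact p = 0.0649). Leaving out 1 mouse at a time gave differences of 0.671 to 0.992 points for the share of kept barcodes, 1.10 to 1.38 without globin-rich barcodes, 15.5 to 21.9 for mature among mature and immature neutrophils, and 204 to 335 for median UMIs. The 29 called genes were 73 by DESeq2, 480 (327 higher, 153 lower) without a filter on low counts among 17877 genes tested, 8 with a mean of at least 50 UMIs, 9 with at most 10% mitochondrial UMIs, 1 with at least 4 receptor UMIs (Mt1), 19 with at most 1% globin UMIs, 18 with at most 10000 UMIs, 5 with little hepatocyte and globin RNA, 3 without monocyte and class II UMIs, and 7 when counted among the 1973 genes at least as high in members. They were 32 by voom with quality weights, 43 with Y-linked expression as a covariate and 36 (19 higher, 17 lower, 22 of them among the 29) without anemic mice 2 and 3. Leaving out 1 mouse gave 3 to 28, the lowest without control 1, and Cyp2e1, Crot and Alas2 kept their calls each time. Of these Alas2 met the filter on mean UMIs only through the anemic mice. The labels do not say whether the replicate numbers pair the mice. Deviations of same-numbered mice correlated at −0.079 to 0.142, and 1 of 6 pairs was over 0.1. No control correlated best with the anemic mouse of its own number. Pairing was thus not seen, but so few correlations cannot exclude it. With the replicate number as a block, 66 genes (25 higher, 41 lower) were called. The 3 genes that differed between stages were 0 by voom with the mouse as a random effect (345 genes at an unadjusted p under 0.05, against 373 by edgeR), 1 without TMM factors, 1 with a mean of at least 50 UMIs and 0 to 5 with 1 mouse left out. Signs turned only in genes that were not called. Without anemic mice 2 and 3 the log2 fold changes were −0.16 for Lyz2, 0.12 for Clec4d, −0.066 for Pkm, −0.044 for Cebpb, −0.049 for Plin2, −0.037 for H2afz, −0.19 for B2m and −0.073 for H2-D1. With the Y-linked covariate they were 0.037 for Cstdc4, 0.086 for Clec4d and 0.071 for Fth1, and without TMM factors −0.0069 for Rac2. With 1 mouse left out they ran from −0.0014 to 0.23 for Mmp8, −0.11 to 0.020 for Cstdc4, −0.042 to 0.11 for Rac2, −0.065 to 0.089 for Clec4d, −0.28 to 0.062 for Fth1, −0.038 to 0.24 for Cebpd, −0.0099 to 0.19 for H2afz and −0.066 to 0.37 for B2m. Apart from settings that test fewer genes or fewer cells, the cause was not tested. Genes below a mean of 5 UMIs per mouse were left out of the reported test.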
